A study of Mus musculus with 4 samples.

Results

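The genes described here form the switch that lets a cell leave G1: the D-type cyclins Ccnd1, Ccnd2 and Ccnd3, their kinases Cdk4 and Cdk6, the Ink4 inhibitors Cdkn2a and Cdkn2b, the Cip/Kip inhibitors Cdkn1b and Cdkn1c, and Rb1. They were taken by symbol, and all 10 of 10 genes were measured, of 19938 genes in all, by 11 probe sets of the 23410 that carry a gene symbol (Cdkn1b has 2 probe sets). Expression was measured on Affymetrix MoGene 1.0 ST arrays in 4 clonal lines, the mesenchymal-like M1 and M2 and the epithelial E1 and E2, with 1 array per line. All 4 lines came from a single spontaneous mammary tumor of a female FVB Tg MMTV/neu mouse (strain FVB/N in the study's methods), which carries the rat ErbB2 (neu) oncogene under a mammary-specific viral promoter. The age of the mouse is not given in the sources used here. Tumor cells were sorted on neu and CD24, low for the mesenchymal-like and high for the epithelial lines, and each line was grown out from 1 cell by limiting dilution. M1 and M2 were kept in MEGM, a mammary epithelial medium, with a low share of serum plus pituitary extract, epidermal growth factor, insulin and hydrocortisone, whereas E1 and E2 were kept in RPMI with a high share of serum. Cell type and medium therefore cannot be told apart in any difference between M and E lines. The study set M1 apart from the other lines by tumor formation in mice, so M1 was also compared with the other 3 lines.

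In G1, mitogens raise the D cyclins, which bind and activate Cdk4 and Cdk6. These kinases phosphorylate the Rb1 protein, which then releases the E2F factors that switch on the genes of DNA replication. The Ink4 proteins bind Cdk4 and Cdk6 and keep the D cyclins off them, while the Cip/Kip proteins mainly block the cyclin E and cyclin A kinases further on. Mouse mammary tumors driven by neu are known to need cyclin D1, and Cdkn2b is known as a gene that TGF-beta switches on in epithelial cells. Cdkn2a makes a pair of unrelated proteins from separate first exons, p16Ink4a, which blocks Cdk4 and Cdk6, and p19Arf, which binds Mdm2.

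Of the 11 probe sets, 1 (9.09%) differed between the cell types, where 3.73% of all 23410 probe sets did. This was Cdkn2b, 7.01-fold lower in the M lines than in the E lines. Its call, like every other call over all genes, was lost when either E line was left out. Ccnd2 was lower in both M lines by a smaller margin that did not pass the test over all genes, and Cdk6 had its lowest value in M1, which did not pass that test either. The other members lay close together in the 4 lines, and 8 of the 11 probe sets spanned less than 0.5 on the log2 scale from the highest line to the lowest.

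The windows of 250 bases before the transcription starts at the Cdkn2b and Cdkn2a locus are shown because these neighbouring Ink4 genes differed in how they varied between the cell types. They are RefSeq sequence of mouse build GRCm38.p6 on chromosome 4, minus strand, written 5′ to 3′, with each CpG dinucleotide in capitals. For Cdkn2a, nearer means nearer to the body of the gene, and the upstream start is the one closer to Cdkn2b.
Cdkn2b, chr4:89311033-89311282: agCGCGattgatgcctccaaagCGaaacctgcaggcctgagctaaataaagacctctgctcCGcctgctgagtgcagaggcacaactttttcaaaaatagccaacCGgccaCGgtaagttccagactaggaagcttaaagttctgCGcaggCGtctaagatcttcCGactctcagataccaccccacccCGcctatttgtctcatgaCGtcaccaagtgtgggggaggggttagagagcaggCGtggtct
Cdkn2a, upstream start (chr4:89294620-89294869): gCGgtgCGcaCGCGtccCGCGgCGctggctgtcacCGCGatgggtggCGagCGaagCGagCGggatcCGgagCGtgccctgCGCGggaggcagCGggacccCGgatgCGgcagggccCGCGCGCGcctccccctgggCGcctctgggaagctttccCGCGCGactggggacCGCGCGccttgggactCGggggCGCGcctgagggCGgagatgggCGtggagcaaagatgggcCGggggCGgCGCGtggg
Cdkn2a, nearer start (chr4:89282193-89282442): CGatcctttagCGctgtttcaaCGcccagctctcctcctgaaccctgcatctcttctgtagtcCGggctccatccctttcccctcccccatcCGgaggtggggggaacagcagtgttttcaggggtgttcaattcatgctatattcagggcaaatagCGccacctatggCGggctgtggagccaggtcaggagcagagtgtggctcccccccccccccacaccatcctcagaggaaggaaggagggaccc

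The Cdkn2b window held 12 CpG dinucleotides at 53.6% GC, and the upstream and nearer Cdkn2a windows held 40 at 78.4% GC and 7 at 60% GC. Over all 32851 RefSeq windows of this length, the median was 6 CpG dinucleotides and 52.4% GC, so the upstream Cdkn2a window stood far above the usual makeup and the Cdkn2b window near it in GC. Searched on both strands, the GC box GGGCGG was found 2 times in the upstream Cdkn2a window and in neither of the other windows, against 32.7% of all windows that hold it. The E2F-type letters TTTNGCGC were found 1 time, in the nearer Cdkn2a window, against 1.13% of all windows. The E-box letters CACCTG, which Zeb and Snail proteins can bind, were in none of the 3 windows, against 17.2% of all windows. These matches are letters in a window and no measure of binding or methylation.

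Levels are log2 values normalized by the authors, on a scale where a difference of 1 is a 2-fold change. The line medians ran from 6.75 to 6.85, and all values from 2.28 to 14.54. Of 13 probe sets for epithelial markers, 7 were lower in M lines (limma, Benjamini-Hochberg adjusted p under 0.05), led by Epcam at 5.77 and 5.46 in M1 and M2, against 12.70 and 12.76 in E1 and E2. Of 13 mesenchymal markers, 5 were higher in M lines, among them Zeb1 and Cdh2. The labels were not borne out by every marker: Krt8 and Krt18 were high in all 4 lines, Col1a1 and Col3a1 were between 7.28 and 7.73 in all of them, and the mRNA of the sorted protein CD24 was at 12.39 and 12.53 in M1 and M2, against 11.61 and 12.15 in E1 and E2. Endothelial markers lay between 4.30 and 7.58 in every line. The leukocyte and adipocyte markers were as low except for Lyz2, at 8.91 in M1, and Fabp4, at 10.77 in M2. Because each line is 1 array, p-values for M against E lines rest on the spread between 2 clones of a type. Those for M1 rest on the spread among M2, E1 and E2, which are of both types, and M1 is assumed to vary as they do.

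The D-type cyclins were examined first. Ccnd1, the D cyclin most used in mammary epithelium, was at 13.33 and 13.31 in M1 and M2, against 13.37 and 13.26 in E1 and E2. The types overlapped, and their difference was 0.01 with a 95% interval of −0.30 to 0.31 (M minus E, log2; limma adjusted p = 0.988). A difference of 2-fold between the types lies outside that interval.

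Ccnd2, a D cyclin that many tissues use beside Ccnd1, was at 11.87 and 11.49 in M1 and M2, against 12.53 and 12.33 in E1 and E2. Both M lines were below both E lines, with a gap of 0.46 between the nearest lines of each type. The means were 11.68 ± 0.27 in M lines and 12.43 ± 0.14 in E lines (SD, n = 2 each), a difference of −0.75 (SE 0.19, 95% interval −1.27 to −0.24). It passed at an unadjusted p under 0.05 but not over all genes (limma adjusted p = 0.151). The gap of 0.39 between M1 and M2 was close to the gap between the types, so the order of M1 against E2 rests on a difference of the same size as the spread between clones. In bulk RNA of a line, fewer cells with a transcript and less of it per cell cannot be told apart.

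Ccnd3 was at 10.66 and 10.53 in M1 and M2, against 10.23 and 10.44 in E1 and E2. The M lines were above the E lines by a gap of 0.08, less than the 0.21 by which E2 and E1 differed. The difference was 0.25 (SE 0.13, limma adjusted p = 0.459).

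**Figure D1:**
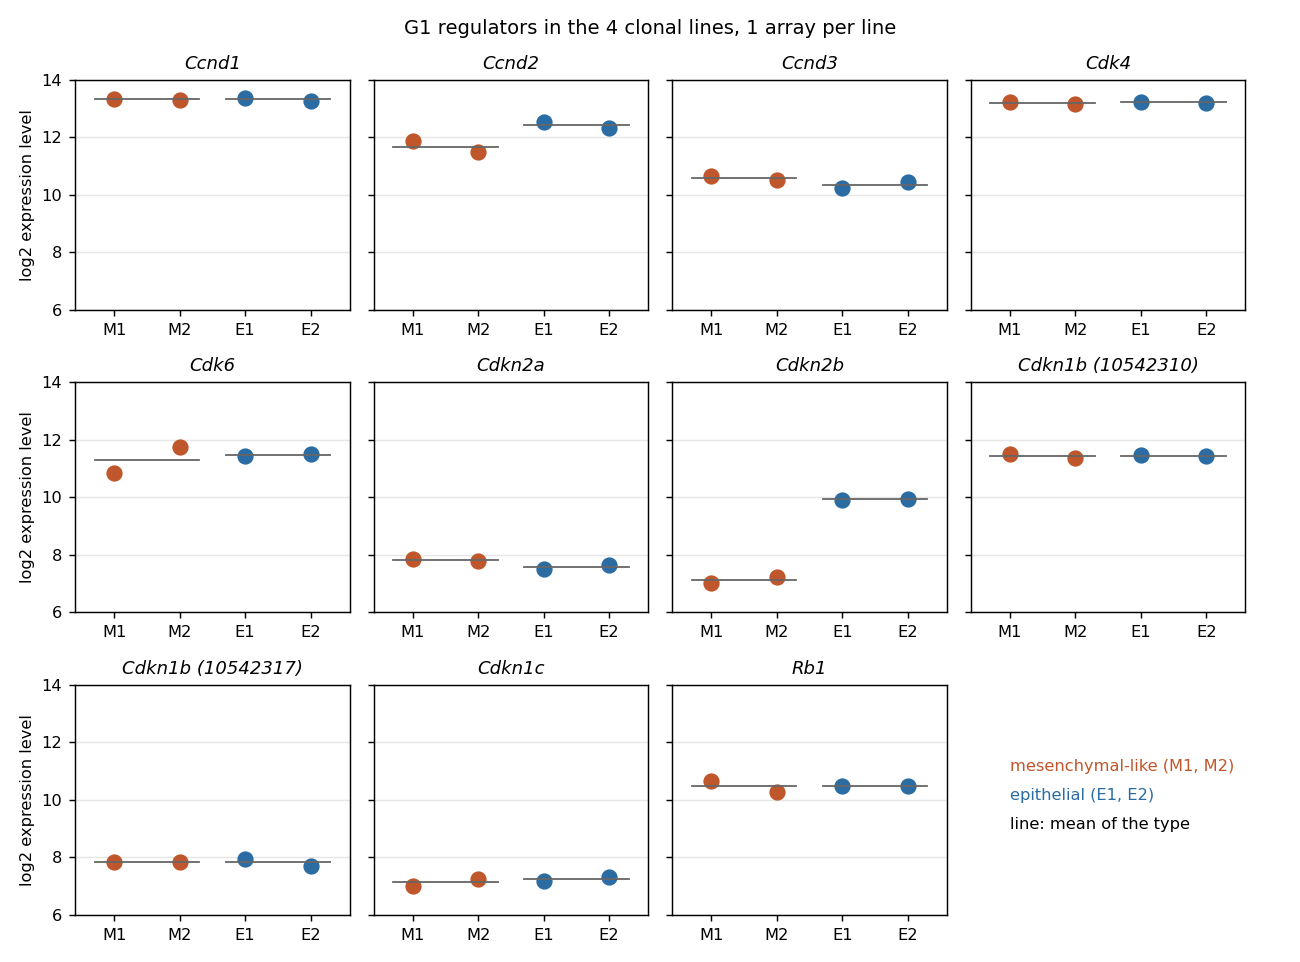
Log2 expression level (vertical axis) of each of the 11 probe sets in the mesenchymal-like lines M1 and M2 and the epithelial lines E1 and E2, 1 point per array, with a horizontal line at the mean of each type. Cdkn2b is at 7.02 and 7.22 in M1 and M2 and at 9.91 and 9.94 in E1 and E2, Cdk6 is lowest in M1 at 10.84, and most other panels are flat.

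The kinases followed 2 patterns. Cdk4 was at 13.22 and 13.17 in M1 and M2, against 13.22 and 13.20 in E1 and E2, the narrowest span of all members at 0.06. Its difference was −0.01 (95% interval −0.30 to 0.27, limma adjusted p = 0.975). The 4 lines could not be ordered for Cdk4 beyond their spread.

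Cdk6, the partner kinase that can stand in for Cdk4, was at 10.84 and 11.76 in M1 and M2, against 11.45 and 11.50 in E1 and E2. M1 was the lowest line and M2 the highest, and the E lines lay between them and 0.05 apart. The M mean of 11.30 ± 0.66 and the E mean of 11.48 ± 0.03 (SD, n = 2 each) differed by −0.18 with a wide interval of −1.14 to 0.79 (limma adjusted p = 0.881), and without M1 the difference turned to 0.29. M1 was 0.73 below the mean of the other 3 lines, 11.57 ± 0.17 (SD, n = 3), with a 95% interval of −1.28 to −0.19. That comparison passed at an unadjusted p under 0.05 but not over all genes (limma adjusted p = 0.576). Between the mesenchymal-like lines, which shared a medium, Cdk6 was 1.90-fold higher in M2 than in M1, against a median absolute difference of 0.18 (log2) over all 23410 probe sets. Among 8 fibroblast and smooth muscle markers, Dcn and Pdgfrb also set M1 apart in the comparison with the other 3 lines (limma adjusted p = 0.0476 and 0.0498), both higher in M1. The list was mixed: M1 was above M2 for 5 of the 8 markers and below it for 3. Pdgfra was among those 3, at 8.71 and 10.20 in M1 and M2. The summed level of the 8 markers was 11.40 in M1 (log2 of the sum), against 10.75 in M2, 9.54 in E1 and 9.67 in E2. Their part in the Cdk6 difference was not tested. Other markers also lay apart between M1 and M2: Lyz2 was at 8.91 and 6.57 in M1 and M2, against 5.08 and 5.65 in E1 and E2, and Fabp4 at 7.20 and 10.77, against 5.26 and 5.50. The summed level of the 6 leukocyte markers was 9.61 and 8.66 in the M1 and M2 lines, against 8.37 and 8.53 in the E lines (log2 of the sum). That of the 4 adipocyte markers was 8.31 and 10.91, against 7.77 and 7.85. The part of these markers in the Cdk6 difference was not tested.

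The Ink4 inhibitors lie side by side on chromosome 4 but differed in how they varied. Cdkn2b, which makes p15Ink4b, was at 7.02 and 7.22 in M1 and M2, against 9.91 and 9.94 in E1 and E2. The types were far apart: the nearest lines, M2 and E1, were separated by 2.70, whereas M1 and M2 differed by 0.19 and E2 and E1 by 0.03. The means were 7.12 ± 0.14 in M lines and 9.93 ± 0.02 in E lines (SD, n = 2 each), and the difference of −2.81 (SE 0.12, 95% interval −3.15 to −2.47) passed the test over all genes (limma adjusted p = 0.00398). On a linear scale Cdkn2b was 7.01-fold lower in M lines, with an interval of 5.53 to 8.88. The M values lay near the median of all values, 6.78, and the part of array background in the fold was not tested. With a floor at that median, the limma adjusted p was 0.0468. The floor lies below the Cdkn2b value of every line, and the difference stayed at −2.81. It therefore does not bear on background in Cdkn2b.

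Cdkn2b was thus the 1 of 11 probe sets that passed, or 9.09% of the members, where 3.73% of all 23410 probe sets passed in either direction and 2.02% passed as lower in M lines. It ranked 125 by adjusted p and 271 by the size of the fall. Within the types, the order of M1 against M2 and of E2 against E1 was not resolved. The call was lost when either E line was left out, as was every other call over all genes. The Cdkn2b difference was −2.82 without E1 and −2.79 without E2, and lay between −2.90 and −2.71 in every alternative. The epithelial markers moved with Cdkn2b: 7 of 13 were lower in M lines, and their summed level was 14.69 and 14.95 in M1 and M2, against 15.73 and 15.96 in E1 and E2 (log2 of the sum). Krt8, Krt18 and Cd24a stayed high in M lines, and the part of the 13 markers in the Cdkn2b difference was not tested.

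Cdkn2a was at 7.86 and 7.77 in M1 and M2, against 7.53 and 7.66 in E1 and E2. These values lay little above the median of all values, 6.78, and whether so dim a probe set follows a change was not tested. The M lines were the higher ones, the opposite side from Cdkn2b, by a gap of 0.11. The difference of 0.22 (SE 0.12, 95% interval −0.10 to 0.54) did not pass the test (limma adjusted p = 0.458). Its probe set is annotated to both RefSeq transcripts, so p16Ink4a and p19Arf cannot be separated here.

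The next genes on either side of the pair were read in the same way. Mtap, the methylthioadenosine phosphorylase gene on the far side of Cdkn2a, was at 9.76 and 9.62 in M1 and M2, against 9.44 and 9.48 in E1 and E2 (difference 0.23, limma adjusted p = 0.431). Dmrta1, on the other side of Cdkn2b, was at 6.45 and 5.58 in M1 and M2, against 5.46 and 5.54 in E1 and E2 (difference 0.52, limma adjusted p = 0.548). Zfp352, 1 gene further on, was at 6.50 and 6.01 in M1 and M2, against 6.09 and 6.07 in E1 and E2 (difference 0.18, limma adjusted p = 0.770). Among these 5 genes, Cdkn2b was thus the one that passed the test.

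**Figure D2:**
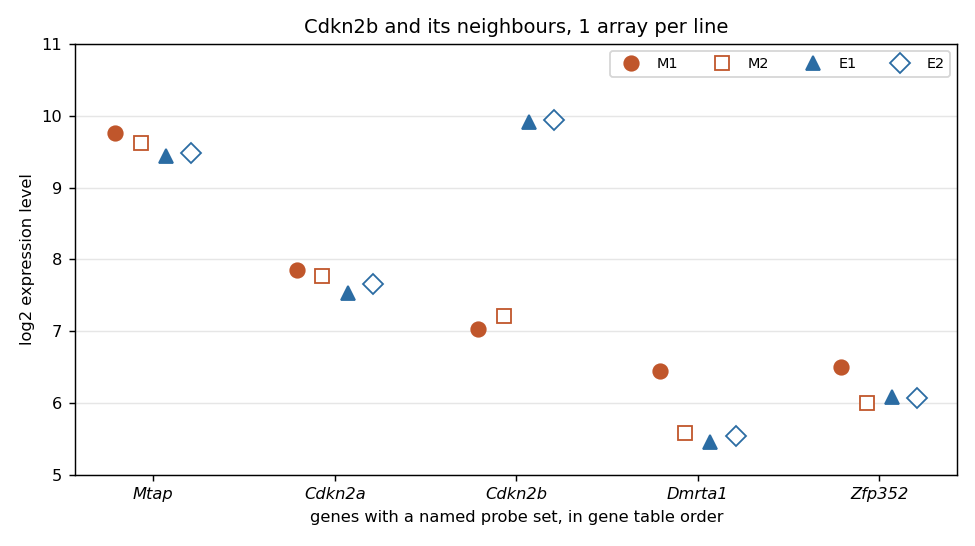
Log2 expression level (vertical axis) of Cdkn2b and the 2 nearest genes with a named probe set on each side, in gene table order and not to scale in distance, with 1 point per array (orange, M1 and M2; blue, E1 and E2). The M points lie 2.70 below the E points at Cdkn2b, and at or above them at Cdkn2a and Mtap.

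Among the Cip/Kip inhibitors, Cdkn1b, which makes p27Kip1, was read by 2 probe sets. The first, 10542310, was at 11.50 and 11.35 in M1 and M2, against 11.46 and 11.43 in E1 and E2. The second, 10542317, was at 7.84 and 7.84 in M1 and M2, against 7.93 and 7.72 in E1 and E2. The types overlapped on both, with differences of −0.02 (95% interval −0.34 to 0.30, limma adjusted p = 0.971) and 0.02 (−0.33 to 0.37, limma adjusted p = 0.969). Neither probe set separated the types, though the second lay much nearer the median of all values, 6.78, and adds less.

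Cdkn1c, which makes p57Kip2, was at 7.02 and 7.26 in M1 and M2, against 7.16 and 7.33 in E1 and E2. These values also lay near the median of all values, 6.78. The lines interleaved, and the difference of −0.11 (95% interval −0.51 to 0.30, limma adjusted p = 0.812) was smaller than the 0.24 between M1 and M2.

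Rb1, the protein that these kinases inactivate, was at 10.66 and 10.28 in M1 and M2, against 10.48 and 10.47 in E1 and E2. M1 and M2 lay on either side of the E lines, and the means of both types were 10.47. The interval of the difference was −0.47 to 0.47, wider than for Cdk4, since M1 and M2 differed by 0.38.

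**Figure D3:**
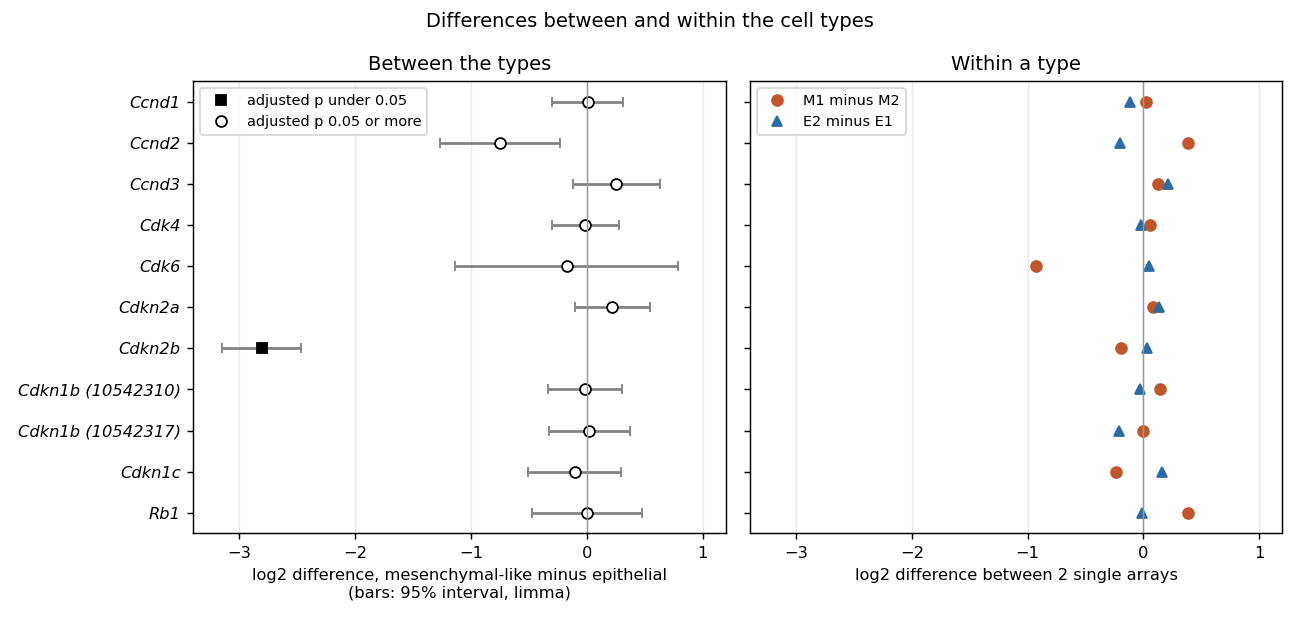
The panel on the left gives the log2 difference of mesenchymal-like minus epithelial lines for each probe set, with 95% intervals from limma, and the panel on the right gives M1 minus M2 (circles) and E2 minus E1 (triangles), 1 array each. Cdkn2b at −2.81 is the filled square whose interval lies far from 0, Ccnd2 is at −0.75, and Cdk6 has the largest gap within a type at −0.93.

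Over all 11 probe sets the M and E lines did not overlap for 4, or 36.4%, where 48% of all probe sets did not overlap. Ccnd2 and Cdkn2b were lower and Ccnd3 and Cdkn2a higher in both M lines. The median absolute difference between the types was 0.11 for the members and 0.16 for all probe sets. The members other than Cdkn2b and Ccnd2 all had differences under 0.3 in size.

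M1 against the other 3 lines gave 0 of 11 probe sets past the threshold (limma, Benjamini-Hochberg), where 22 of all 23410 probe sets, or 0.094%, passed. At an unadjusted p under 0.05 there was 1 member, Cdk6, where 7.01% of all probe sets were, so 1 of 11 is near the share of all genes. The differences ranged from −2.00 for Cdkn2b, whose other 3 lines spread widely (9.02 ± 1.57, SD, n = 3) with M2 near M1, to 0.25 for Ccnd3 and Rb1. Without M2, Cdkn2b passed (difference −2.90, limma adjusted p = 0.00412), but this sets the single M1 array against E1 and E2, whose spread alone enters the fit, and is a comparison of types.

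Within the types there was 1 array a side and no test. None of the 11 probe sets was 2-fold apart between M1 and M2, where 5.86% of all probe sets were, and none between E2 and E1, where 2.24% were. Cdk6 came nearest at −0.93 (M1 minus M2), followed by Ccnd2 at 0.39 and Rb1 at 0.38. E2 and E1 differed by at most 0.21 on any member.

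The genes whose levels ran most like those of Ccnd2 and Cdkn2b over the 4 lines were sought by the root mean square difference of levels centred over the lines. For Cdkn2b the closest was Adamts3, which codes for a procollagen-processing protease, at 6.76 and 7.04 in M1 and M2, against 9.81 and 9.86 in E1 and E2 (root mean square difference 0.0724). Unc13b (0.106) and Homer2 (0.124) came next. For Ccnd2 the closest were Mrs2 (0.00898), Abhd13 (0.0211) and Kdm5c (0.0329). Over 4 lines such likeness is a description, since many genes can share an order of 4 values.

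The rest of the pathway was read from 9 lists, with 108 of 114 listed genes measured by 116 probe sets. Of these, 4 were higher and 1 lower in M lines, 4.31% in all against 3.73% of all probe sets, with a median difference of 0.00 in the lists and over all genes. None of the 116 differed in M1 against the other 3 lines (limma, Benjamini-Hochberg), where 0.094% of all probe sets did. Before adjustment, 35 of the 116 had p under 0.05 between the types and 16 in M1 against the other 3 lines (limma). Of all probe sets, 18.0% had this between the types and 7.01% in M1 against the other 3 lines.

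Among the other Cdk inhibitors, 0 of 4 probe sets passed, with a median of 0.90, and all 4 had an unadjusted p under 0.05 (limma), as 18.0% of all probe sets had, 3 of them with higher and 1 with lower values in M lines. Cdkn2c, the Ink4 gene for p18, was at 10.38 and 10.47 in M1 and M2, against 9.78 and 9.70 in E1 and E2 (difference 0.69, limma adjusted p = 0.0682). Cdkn2d, the Ink4 gene for p19Ink4d, was at 8.98 and 8.26 in M1 and M2, against 7.27 and 7.76 in E1 and E2 (difference 1.10, limma adjusted p = 0.204). Both of these Ink4 genes had their higher values in the M lines, the opposite side from Cdkn2b, though neither passed. Cdkn3, a phosphatase that acts on Cdk2, was at 10.06 and 10.12 in M1 and M2, against 8.36 and 8.91 in E1 and E2 (limma adjusted p = 0.0639). Cdkn2aip, which codes for a protein that binds p19Arf, ran the other way at 9.13 and 8.80 in M1 and M2, against 9.55 and 9.99 in E1 and E2 (difference −0.81, limma adjusted p = 0.177).

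None of the 10 probe sets of other G1/S cyclins and kinases passed, and their median was −0.12. At an unadjusted p under 0.05 (limma) there were 2, where 18.0% of all probe sets were. Ccne1 and Ccne2, the cyclins E that act after the D cyclins, were highest in M1. Ccne1 was at 9.27 and 7.79 in M1 and M2, against 8.17 and 8.13 in E1 and E2, and Ccne2 at 8.52 and 7.51, against 6.94 and 6.99. Neither passed in M1 against the other 3 lines (limma adjusted p = 0.418 for Ccne1 and 0.515 for Ccne2).

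None of the 14 probe sets of pocket proteins and E2F factors passed (median 0.22). Of these, 3 had an unadjusted p under 0.05 (limma), against 18.0% of all probe sets. Rbl2, the Rb1 relative p130, was at 9.25 and 9.36 in M1 and M2, against 8.47 and 8.63 in E1 and E2 (limma adjusted p = 0.0709). E2f8, an E2F that represses its targets, was at 10.36 and 11.42 in M1 and M2, against 8.37 and 8.86 in E1 and E2 (difference 2.28, limma adjusted p = 0.0937).

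Of the 19 probe sets of E2F target genes of S phase, 0 passed between the types, with a median of 0.22. An unadjusted p under 0.05 (limma) was found for 3, where 18.0% of all probe sets had this. M1 was above M2 for 17 of the 19, with a median M1 minus M2 of 0.72, where M1 was above M2 for 49.1% of all probe sets. Mcm4, a subunit of the replicative helicase, was at 10.81 and 9.89 in M1 and M2, against 9.74 and 9.78 in E1 and E2. Tk1, the thymidine kinase of replicating cells, was at 10.47 and 9.18 in M1 and M2, against 7.71 and 8.76 in E1 and E2, on the probe set with the larger difference. With 1 array each, M1 against M2 has no test, and the genes of this list are transcribed together in S phase and are no replicates of each other.

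Of the 15 probe sets for the turnover of D cyclins and p27, 0 passed (median −0.17). There were 2 at an unadjusted p under 0.05 (limma), where 18.0% of all probe sets were. Fbxo31, an F-box protein that directs cyclin D1 to degradation, was lowest in M1 on both of its probe sets, and the first was at 7.44 and 8.81 in M1 and M2, against 9.65 and 9.36 in E1 and E2 (limma adjusted p = 0.290).

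Of 17 inducers of D cyclins, 1 passed: Erbb3, the receptor that pairs with ErbB2, was lower in M lines at 8.73 and 8.92 in M1 and M2, against 11.97 and 12.06 in E1 and E2 (difference −3.19, SE 0.13, limma adjusted p = 0.00355). The probe set annotated to Erbb2 was at 10.58 and 11.03 in M1 and M2, against 11.83 and 11.95 in E1 and E2 (difference −1.09, limma adjusted p = 0.0852). Erbb2 is the mouse counterpart of the rat neu transgene, whose protein was part of the sort. Whether transgene mRNA adds to this signal was not tested. Fosl1, an AP-1 subunit, was at 10.08 and 12.71 in M1 and M2, against 7.43 and 7.96 in E1 and E2 (limma adjusted p = 0.164), with the M lines far apart. The median of this list was −0.53, and 8 of the 17 had an unadjusted p under 0.05 (limma), where 18.0% of all probe sets did.

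Of the 20 probe sets for regulators of the Ink4a/Arf locus, 3 passed as higher in M lines and 0 as lower, with a median of −0.07. Over all 23410 probe sets, 402 passed as higher and 472 as lower. Before adjustment, 9 of the 20 had p under 0.05 (limma), where 18.0% of all probe sets did. The largest fall of the list, in Id2, did not pass (difference −2.19, limma adjusted p = 0.104). Zeb1, a repressor of epithelial genes, was at 10.99 and 10.64 in M1 and M2, against 7.49 and 6.96 in E1 and E2 (difference 3.59, limma adjusted p = 0.0113). Twist1, a repressor known to counter Ink4a/Arf in cultured cells, was at 9.27 and 9.99 in M1 and M2, against 6.29 and 6.24 in E1 and E2 (difference 3.36, limma adjusted p = 0.0161). Zeb1 and Twist1 are also on the list of mesenchymal markers, so they count there too. Id1, an inhibitor of bHLH factors, was at 10.52 and 10.24 in M1 and M2, against 9.31 and 9.23 in E1 and E2 (difference 1.11, limma adjusted p = 0.0448). The Polycomb genes of the list, Bmi1, Cbx7, Cbx8, Ring1, Rnf2, Ezh2, Eed and Suz12, did not pass, with differences between −0.40 and 0.31.

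Of 13 Fox and TGF-beta regulators of Cdk inhibitors, 1 passed, where 3.73% of all probe sets did. Unadjusted p was under 0.05 for 3 (limma), near the share of 18.0% over all probe sets. Klf4, a zinc finger factor linked to cell cycle arrest in epithelia, was higher in M lines at 10.13 and 10.05 in M1 and M2, against 6.74 and 6.53 in E1 and E2 (difference 3.46, limma adjusted p = 0.00313). Tgfb1, a ligand that induces Cdkn2b in epithelial cells, was at 10.94 and 9.10 in M1 and M2, against 6.93 and 8.67 in E1 and E2 (limma adjusted p = 0.336). Tgfb2 was at 10.56 and 8.27 in M1 and M2, against 10.97 and 11.35 in E1 and E2 (limma adjusted p = 0.407), so the ligands had no common order. Tgfbr1, a TGF-beta receptor, was at 9.26 and 9.34 in M1 and M2, against 10.28 and 10.05 in E1 and E2. Its difference of −0.86 did not pass (limma adjusted p = 0.0639). Over the 13 probe sets of the list, 6 were higher and 7 lower in M lines. Mdm2, from the list around p19Arf in which 0 of 4 probe sets passed and 1 had an unadjusted p under 0.05 (limma), was at 12.22 and 11.83 in M1 and M2, against 11.28 and 11.15 in E1 and E2 (limma adjusted p = 0.124).

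**Figure D4:**
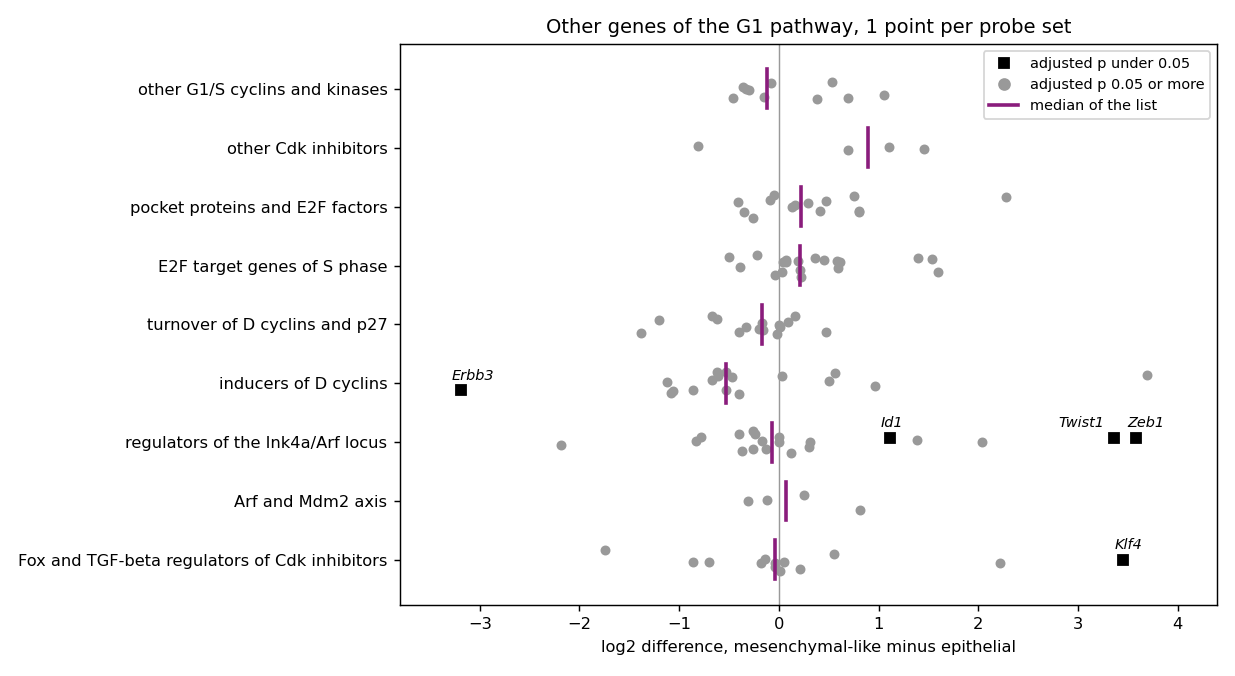
Log2 difference of mesenchymal-like minus epithelial lines (horizontal axis) for the 116 probe sets of the 9 pathway lists, 1 point each, with a vertical bar at the median of each list. Black squares mark the 5 probe sets past the threshold, Erbb3 at −3.19 and Id1, Twist1, Klf4 and Zeb1 between 1.11 and 3.59.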

How the data were processed

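Total RNA of 4 clonal lines was hybridised to Affymetrix MoGene 1.0 ST arrays, 1 per line. The deposited log2 values were normalized by the authors; Partek is named in the submitters' processing notes, and the normalization method is not given in the sources used here. They were used as deposited. Lines were grouped by their labels. limma 3.58.1 in R 4.3.3 (lmFit, eBayes) was fitted to all 23410 probe sets with a gene symbol, with Benjamini-Hochberg adjustment over all of them and a threshold of 0.05, for M1 and M2 against E1 and E2, and for M1 against the other 3 lines. Residual degrees of freedom were 2. M1 against M2 and E2 against E1 had no test. The fit was checked on simulated data. For M against E lines, 0 of 50 probe sets changed by 1 (log2) were called, and 27 of 50 changed by 2. The comparison of M1 with the other 3 lines called none at 1 and fewer at 2. Its simulated spreads came from the fit of M against E lines, with no difference between the types. The real M2, E1 and E2 are of both types, so this rate may not hold for the real comparison. Failing the threshold is therefore no evidence by itself that a gene is unchanged.

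All members were named; of each pathway list, up to 6 genes with the largest M minus E differences were open to naming in addition to counts, as were the 3 most alike genes of each member spanning at least 1 (log2) and 2 genes on each side of a member. The Polycomb genes and the single markers were named after their values were seen. Members and lists were chosen with earlier results of these data known. RefSeq promoter windows matched 6 of the 10 members. Alternatives were quantile normalization, median centring, leaving out dim probe sets, a floor at the median of all values (6.78), all 35556 probe sets, a trended prior, the clone number as a block, and leaving out each line. The number of arrays, 1 per line, limits the precision.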

Additional observations from a re-analysis of the deposited data

How the results depend on the processing

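Cdkn2b was lower in M lines in every alternative, between −2.90 and −2.71, with limma adjusted p between 0.00301 and 0.0795. It lost its call without E1 and without E2, which left 0 to 1 members called over the lines left out. Over all genes, 874 probe sets differed between M and E lines. A floor at the median of all values gave 223, and leaving out a line gave 0 to 1879: 1761 without M1, 1879 without M2, and 0 once E1 or E2 was dropped (2579 and 2651 before adjustment at 0.05). M1 against the other 3 lines gave 22, with 40 after median centring, 62 with a trended prior, 293 with the floor, 11 over all 35556 probe sets, and 0 with dim probe sets left out (966 at an unadjusted p under 0.05). Leaving out a line gave 0 to 1879 there: 0 without E1 (873 unadjusted), 0 without E2 (865 unadjusted) and 1879 without M2, with 0 to 1 members called, Cdkn2b without M2. In the comparison of types, the spread without an E line comes from M1 and M2 alone, and without an M line from E1 and E2 alone. M1 and M2 were at least 2-fold apart for 5.86% of all probe sets, and E2 and E1 for 2.24%. The part of this in the shifts was not tested. No member was 2-fold apart between M1 and M2 under any scaling.

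The lines share only clone numbers: the deviations of same-numbered lines from their type means correlated at −0.04 over genes. With the number as a replicate block, 319 probe sets were called in place of 874, and 1 member, Cdkn2b, was called (limma adjusted p = 0.0383). Small differences of uncalled members changed sign under some settings, among them Ccnd1, Cdk4, Cdk6, Cdkn1b, Cdkn1c and Rb1. With 1 array per line, the spread of a single line is unknown, and a 2-fold fall of Cdk6 in M lines lies inside its interval.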

Other observations

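The nearest genes beside the members were read as far as 2 on each side, which gave 34 genes with 35 probe sets, and 2 of these 35 differed between the types, where 3.73% of all probe sets did. Phlda2, an imprinted gene known for restraining placental growth and 2 genes from Cdkn1c, was at 6.36 and 6.79 in M1 and M2, against 11.36 and 10.75 in E1 and E2 (difference −4.48, SE 0.28, limma adjusted p = 0.00919). Cdkn1c itself and the genes Kcnq1 and Slc22a18 near it had differences of −0.11, −0.02 and 0.16. AI661453, 2 genes from Ccnd3, was at 6.37 and 6.24 in M1 and M2, against 8.07 and 7.92 in E1 and E2 (difference −1.69, SE 0.12, limma adjusted p = 0.0126). Gpr19, the gene next to Cdkn1b, had the highest difference of the neighbours at 0.95 and did not pass (limma adjusted p = 0.0809).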
